A study of Mus musculus with 8 samples.

Results

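The genes of the cytosolic translation initiation factors (eIF) and elongation factors (eEF) were examined in T cells that had developed in NOD or B16A host mice. Members were the gene names of the count table that begin with EIF1 to EIF6, EEF1 or EEF2, without the eIF2 kinases (EIF2AK) and without names marked as pseudogenes. This gave 61 of 46625 gene names, and 58 of the 61 passed the filter on low counts. The 3 that did not pass were Eif3j2, Eif4ebp3 and Eif2c5, the last annotated as a long non-coding RNA and not as a translation factor.

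The cells carried 8F10, a transgenic T cell receptor that recognises an insulin peptide, and came from CD45.2 donors without an endogenous T cell receptor alpha chain. Marrow freed of T and B cells was given to CD45.1 hosts of the NOD/ShiLtJ strain after an irradiation below the lethal dose. Insulin is native in NOD hosts, whereas in B16A hosts a residue of its B chain is changed. After 6 weeks the 8F10 T cells were sorted from inguinal lymph nodes, and RNA of 4 libraries per host was amplified and sequenced as reads of 50 bases. The comparison asks how T cells of the same clone differ between hosts with and without the native peptide. Because irradiation was not lethal, the hosts keep some of their own blood cells. The receptor is that of a single clone. The age and number of the animals behind each library is information not given in the sources used here, so the p-values measure only the spread between these libraries, which may be partly technical. Each library carries a number that the labels call its batch, with 1 library of each host in each of batches 1 to 4, and hosts were compared within batches.

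Translation begins when the eIF4F complex binds the cap of an mRNA and a small ribosomal subunit, loaded with eIF3, eIF1, eIF1A and the eIF2 complex that carries the initiator tRNA, scans for the start codon. The eIF2B complex recharges eIF2 with GTP, and the eIF4E binding proteins hold the cap-binding subunit back until mTOR signalling releases them. During elongation eEF1A delivers each aminoacyl tRNA and eEF2 moves the ribosome along, and resting T cells are known for a low rate of protein synthesis that rises sharply on activation.

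The start-site sequences of 4 members are shown because elongation factor mRNAs are textbook terminal oligopyrimidine (TOP) mRNAs, which begin with a C and a run of pyrimidines, and because the X- and Y-linked genes of eIF2 gamma differ between libraries as described further on. Each sequence holds 15 bases before and 15 bases from the annotated start, from the RefSeq table for GRCm38.p6, with capitals for a C followed by at least 4 C or T that begins within 3 bases of that start. They lie at chr9:78481710-78481739, minus strand (Eef1a1), chr7:108934400-108934429, plus strand (Eif3f), chrX:94212637-94212666, minus strand (Eif2s3x) and chrY:1010580-1010609, plus strand (Eif2s3y).
Eef1a1: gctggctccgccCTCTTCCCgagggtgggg
Eif3f: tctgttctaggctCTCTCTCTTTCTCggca
Eif2s3x: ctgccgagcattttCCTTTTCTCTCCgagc
Eif2s3y: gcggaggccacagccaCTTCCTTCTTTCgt

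Such a run was present in 10 of the 47 members found in the table (21.3%) and in 3651 of 27025 genes (13.5%). The capitals of Eif2s3x and Eif2s3y each span 12 bases. Of the 9 members on a list of textbook TOP mRNAs 5 were found in the table, and 2 of them, Eef1a1 and Eif3f, held the run within 3 bases of the annotated start.

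Promoters, taken as 250 bases before to 50 bases after the start, were searched on both strands for the E-box CACGTG, a site bound by MYC and MAX among other factors, for the ETS-type sequence CCGGAAGT and for CCAAT. The E-box was present in 12 of 47 members (25.5%) and in 2187 of 27025 genes (8.09%). CCGGAAGT was present in 8 members (17.0%) and in 4.31% of genes. CCAAT was present in 14 members (29.8%) and in 41.1% of genes. A gene with several annotated starts was counted once if any of them held the sequence. None of the searched sequences contains another. The 12 members with CACGTG were Eef2, Eef2k, Eif1b, Eif3a, Eif3f, Eif3k, Eif4a1, Eif4e, Eif4g1, Eif4h, Eif5a and Eif5a2. The 250 bases before the start are shown for 3 of them with roles in 3 steps, eIF3, the cap helicase and translocation, with CACGTG in capitals. They lie at chr7:28981889-28982138, minus strand (Eif3k), chr11:69672424-69672673, minus strand (Eif4a1) and chr10:81176381-81176630, plus strand (Eef2).
Eif3k: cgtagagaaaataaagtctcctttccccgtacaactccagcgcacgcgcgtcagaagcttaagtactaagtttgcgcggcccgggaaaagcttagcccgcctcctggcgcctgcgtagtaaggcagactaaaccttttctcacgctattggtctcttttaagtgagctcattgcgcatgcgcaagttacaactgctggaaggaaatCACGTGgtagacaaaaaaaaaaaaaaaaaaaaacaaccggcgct
Eif4a1: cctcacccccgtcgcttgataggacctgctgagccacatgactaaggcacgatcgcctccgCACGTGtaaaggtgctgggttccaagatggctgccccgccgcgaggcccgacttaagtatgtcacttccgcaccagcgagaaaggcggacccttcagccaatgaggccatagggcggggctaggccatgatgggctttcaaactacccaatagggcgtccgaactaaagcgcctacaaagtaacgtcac
Eef2: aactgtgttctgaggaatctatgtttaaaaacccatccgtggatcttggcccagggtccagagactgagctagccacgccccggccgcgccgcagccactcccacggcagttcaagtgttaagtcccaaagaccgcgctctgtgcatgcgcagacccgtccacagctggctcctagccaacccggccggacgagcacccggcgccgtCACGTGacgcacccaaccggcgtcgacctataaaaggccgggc

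The E-box begins 44 bases before the start in Eif3k, 189 in Eif4a1 and 43 in Eef2. A match is a description of the letters and not a measured binding site. The host fold changes of the members with and without the E-box are given after the factor groups.

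Libraries of batches 1 to 3 held 4896593 to 6137666 counts, and those of batch 4 held 28094237 and 28301805. The batch 4 libraries detected 19751 and 20723 genes against 29729 to 33175 in the others. The libraries carried CD4 T cell transcripts in both hosts: 9 listed markers summed to 5330 to 16466 CPM (counts scaled to library size) in NOD and 4755 to 12645 CPM in B16A hosts. Over all libraries 5 B cell markers summed to 1.63 to 13.1 CPM, 5 myeloid markers to 3.00 to 32.5 CPM, 5 dendritic cell markers to 3.77 to 52.0 CPM, 3 NK markers to 0.50 to 4.06 CPM and 4 erythroid markers to 0 to 0.56 CPM. A set of 5 stroma and endothelium markers summed to 270 to 420 CPM, nearly all of it Pecam1 (269 to 403 CPM), with Ccl21a at 0 in every library. Cd8a stood at 0 to 3.56 CPM, while Cd8b1 stood at 62.6 to 186 CPM. In RNA from a bulk of sorted cells, fewer cells of a type and less RNA per cell cannot be told apart.

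The share of a library's counts that fell on members was 0.659% to 0.869% in batches 1 to 3 and 1.20% to 1.31% for batch 4. Compared per kilobase of annotated exon, Eef1a1, the carrier of aminoacyl tRNA, had the highest level in both sets of libraries, with a median of 744 CPM per kb in batches 1 to 3 and a mean of 754 in batch 4. Of all counts on members it held 20.3% to 26.0% in batches 1 to 3, but 12.2% in each batch 4 library. In batches 1 to 3 it was followed by Eef2 (335 CPM per kb), Eif3h (166), Eef1b2 (124) and Eif3k (61.4), and in batch 4 by Eif1 (491), Eef1b2 (414), Eef2 (350) and Eif3h (329). The lowest levels in batches 1 to 3 were those of Eif2c5 (0.114 CPM per kb), Eif3j2 (0.342) and Eif3j1 (0.621). Exon lengths are unions over all annotated isoforms, so a level per kilobase is a lower estimate for genes with long alternative exons.

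**Figure D1:**
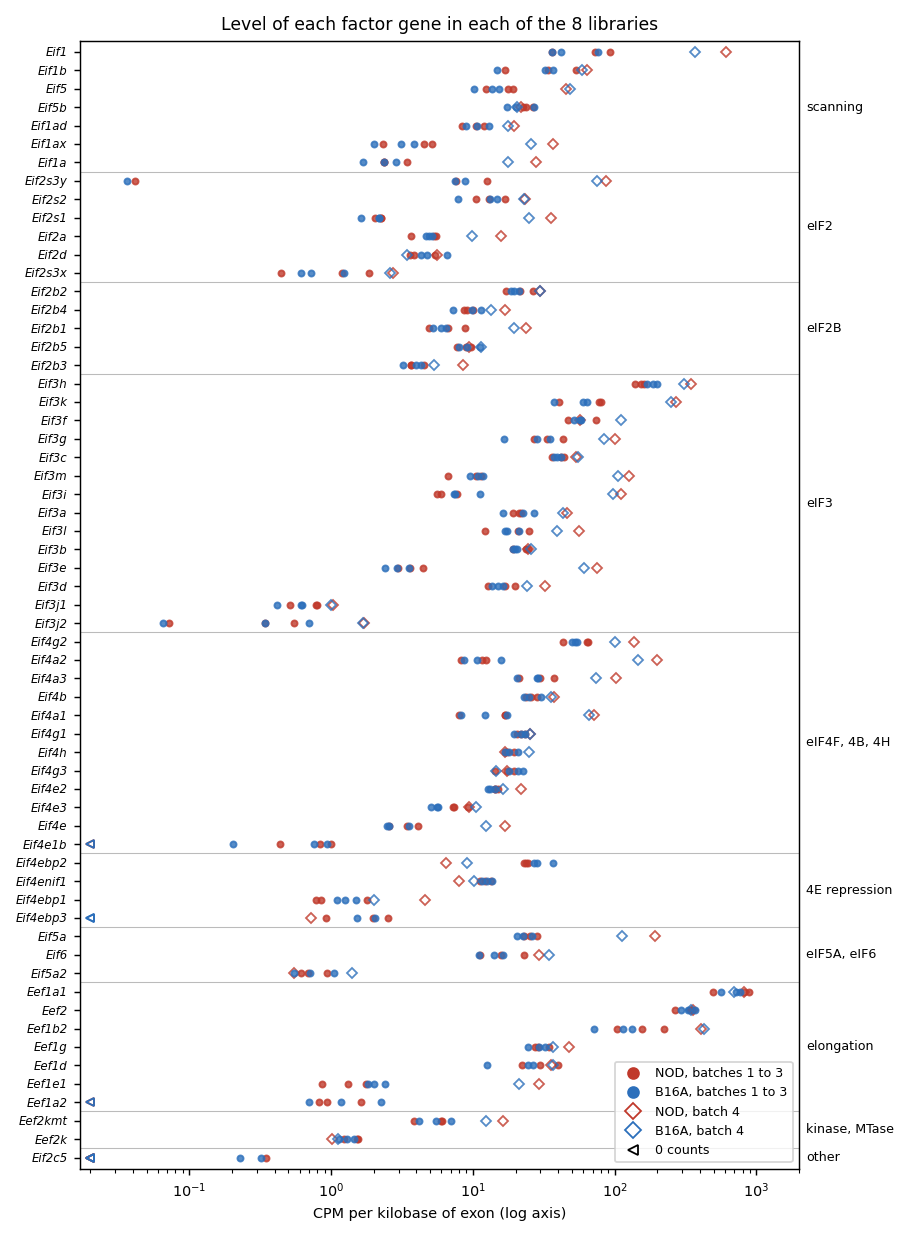
Level of each of the 61 factor genes in CPM per kilobase of exon (log axis), grouped by role, 1 symbol per library with no error bar. Filled circles are batches 1 to 3, open diamonds batch 4, red NOD and blue B16A hosts, and open triangles at the left edge mark 0 counts. Eef1a1 is highest at a median of 744 CPM per kb in batches 1 to 3, and the diamonds lie to the right of the circles for many genes.

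Some members share sequence with other annotated genes, which limits what 50-base reads can assign to them. Over all 50-base windows of a main transcript, 14 members had at least 20% found exactly, on either strand, in a transcript of another gene. Such a gene can be a neighbour that overlaps the member. The leading partner of Eef2kmt (26.1%) was Alg1, which overlaps it on the other strand. The share was 65.3% for Eif4a1, 64.3% for Eef1g and 60.6% for Eef1a1, mostly with processed pseudogenes, and 91.8% for Eif3j2, with its paralog Eif3j1 as the leading partner. Levels and fold changes of these members are uncertain to that extent. The 6 pseudogene-named rows of the family held 0 to 6 counts each outside batch 4 and 6 to 409 within it.

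No member passed the adjusted threshold for a host difference. The edgeR quasi-likelihood test with batch as a term called 0 of 58 members in either direction, where it called 0% of all 14607 genes tested, and adjusted p ran from 0.734 for Eif1 upward. At an unadjusted p under 0.05 there were 5 members higher and 1 lower in NOD hosts, that is 5 of 58 against 3.55% and 1 of 58 against 2.31% of all genes. DESeq2 with batch as a term also called 0 members, where it called 0.123% of genes higher and 0.0205% lower. Its unadjusted p was under 0.05 for 5 members higher and 1 lower, against 3.7% and 2.14% of genes. Limma voom with quality weights called 0 members, where it called 0.0548% higher and 0.00685% lower, and gave 7 and 1 members unadjusted, against 4.5% and 3.53% of genes. Leaving out batch 4, edgeR called 0 of 58 members, where 0.159% of genes were called higher and 0.0445% lower, and gave 6 and 1 unadjusted, against 4.5% and 3.87%. In the edgeR fit of all batches the standard error of a member's log2 fold change had a median of 0.17 and ran from 0.13 to 0.82. There a fold change of about 3 standard errors, that of Eif1 (0.46, SE 0.15), was not called. A difference of that size in a single member can thus be missed in that fit. The levels of NOD and B16A libraries overlapped for all 58 members, where 0.205% of genes had every NOD library above and 0.39% every NOD library below.

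The direction of the members was uneven. In the same fit 42 of 58 had a positive fold change, against 51.3% of all genes, and the median log2 fold change was 0.15 against 0.01 over all genes. Taking batches 1 to 4 singly, NOD exceeded B16A for 39, 24, 42 and 41 of the 58 members, and the median log2 ratio over members was 0.08, -0.10, 0.22 and 0.15. These counts are 67.2%, 41.4%, 72.4% and 70.7% of the members, against 50.0%, 53.4%, 48.0% and 46.4% of all genes tested. The median ratio over all genes was 0.05 in batch 2, -0.03 in batch 3 and 0 in batch 4. A gene with 0 counts in both libraries of a batch has a ratio of 0 and counts as not higher, which lowers these percentages. In batch 2 the members thus leaned to B16A and genes in general slightly to NOD. Without batch 3 the median fold change was 0.07, without batch 2 it was 0.17 and without batch 4 it was 0.12. The CD4 T cell markers leaned the same way, with 8 of 9 positive and a median log2 fold change of 0.31. Their median ratio was 0.04, 0.08, 0.43 and 0.25 in batches 1 to 4. Lck, the kinase that starts receptor signalling, had a fold change of 0.51, while Cd4 had 0.02, Cd3g 0.01 and Trac -0.11. The part of these markers in the members' shift was not tested.

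**Figure D2:**
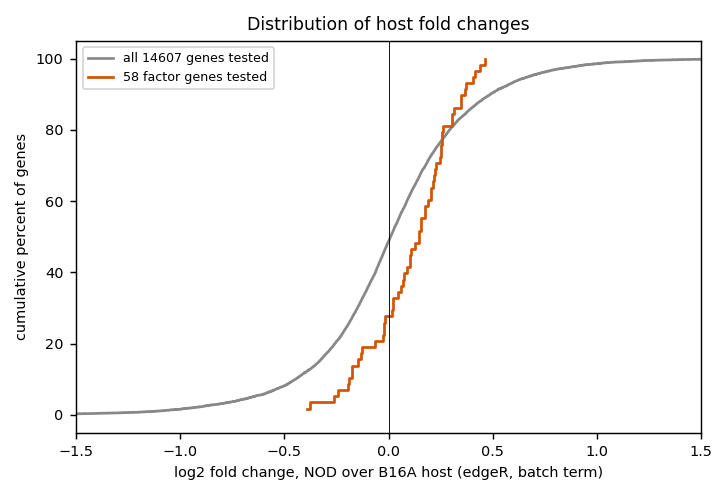
Cumulative percent of genes (vertical axis) by log2 fold change, NOD over B16A host (horizontal axis, edgeR with batch as a term), for all 14607 tested genes (grey) and the 58 tested factor genes (orange). The orange curve lies to the right of the grey one around 0, with medians of 0.15 and 0.01.

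The NOD library was the higher in every batch for 8 members: Eif1, Eif1ax, Eif3e, Eif3g, Eif3k, Eif4a3, Eif4e2 and Eif5a. That is 8 of 58, where 7.43% of all genes were higher in every batch. Only Eif4ebp2 was lower in every batch, 1 of 58 where 6.85% of all genes were. With DESeq2 size factors Eef1d replaced Eif4e2 among the 8, and with upper-quartile factors Eif4e2 dropped out.

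**Figure D3:**
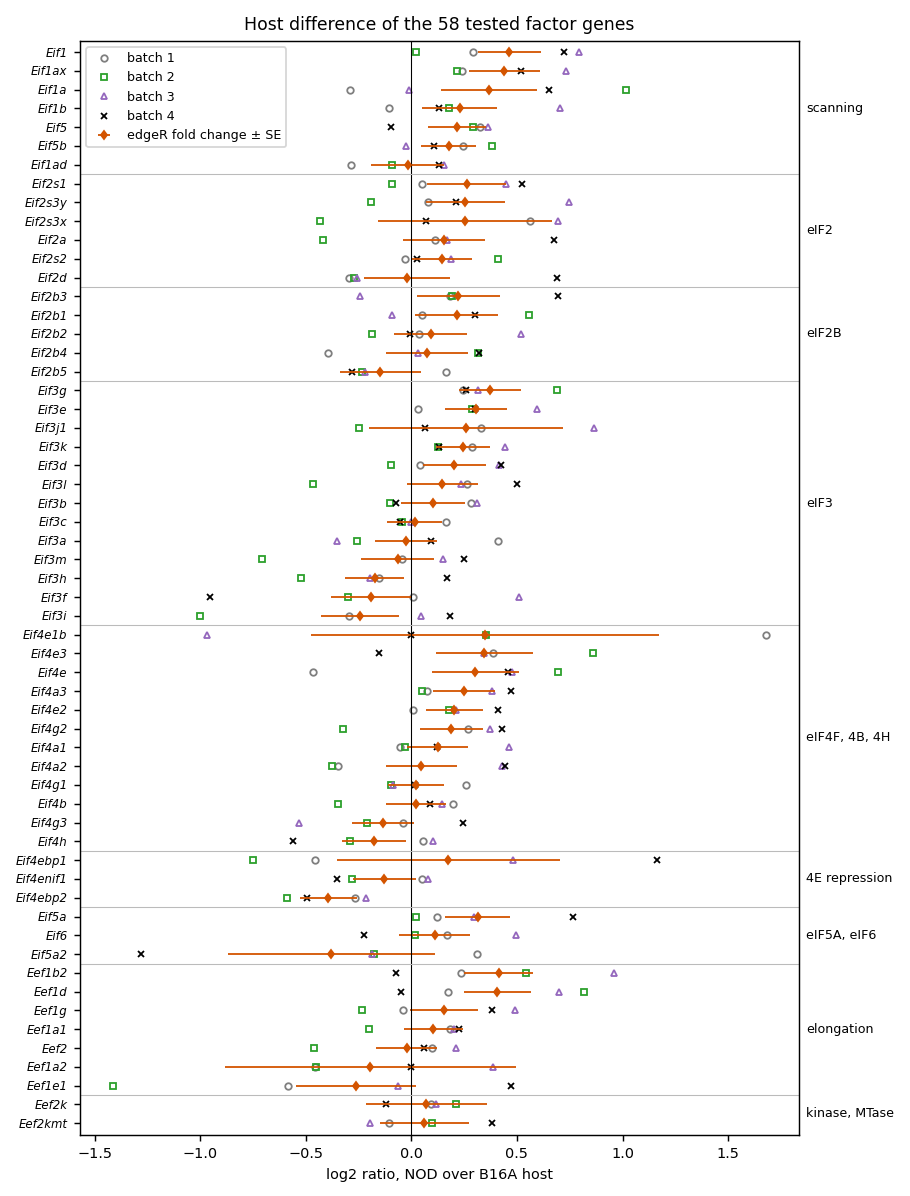
Log2 ratio, NOD over B16A host, of the 58 tested members grouped by role. Circles, squares, triangles and crosses are the single ratios of batches 1, 2, 3 and 4 without error bars, and orange diamonds with bars are edgeR fold changes with batch as a term ± SE. The bars of Eif1 (0.46 ± 0.15) and Eif4ebp2 (-0.39 ± 0.14) lie on opposite sides of 0, and neither passed after adjustment.

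Among the factors of scanning and start codon selection 6 of 7 members had a fold change above 0, with a median of 0.23 and 0 called. Eif1, which keeps the scanning ribosome open until the start codon is found, lies on chromosome 11 (100319885 to 100322096, plus strand, mm10). It stood at 196, 76.5, 153 and 1282 CPM in the NOD libraries of batches 1 to 4 and at 160, 75.4, 88.3 and 777 CPM in the B16A libraries. The NOD library was the higher in each batch, by very little in batch 2, and the hosts overlapped because the batches differed far more than the hosts. Its log2 fold change was 0.46 (SE 0.15, edgeR, unadjusted p = 0.00814, adjusted p = 0.734), where SE is the standard error. Of its 50-base windows 31.6% were shared with other genes.

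Eif1ax, the X-linked gene of eIF1A, which partners eIF1 on the small subunit, stood at 23.9, 12.3, 27.3 and 195 CPM in NOD and at 20.2, 10.6, 16.3 and 136 CPM in B16A libraries. The NOD library was again the higher in each batch, with a log2 fold change of 0.44 (SE 0.17, edgeR, unadjusted p = 0.0205, adjusted p = 0.795). No 50-base window of it was shared with another gene. Eif1a, the autosomal gene of the same factor, had within-batch log2 ratios of -0.29, 1.02, -0.01 and 0.65 and thus no common direction. Eif1b, a close relative of Eif1, stood at 18.9 to 72.2 CPM in NOD and 16.7 to 65.9 CPM in B16A libraries, with a log2 fold change of 0.23 (SE 0.18). Eif5, which triggers GTP hydrolysis by eIF2, had 0.22 (SE 0.14), Eif5b, which joins the large subunit, 0.18 (SE 0.13), and Eif1ad -0.02 (SE 0.17).

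Of the 6 genes around eIF2, 5 had a fold change above 0, with a median of 0.20 and 0 called. Eif2s1, the alpha subunit that stress kinases phosphorylate, stood at 11.2, 10.1, 11.1 and 177 CPM in NOD and at 10.8, 10.8, 8.09 and 123 CPM in B16A libraries. Within each host the 3 libraries of batches 1 to 3 lay close together and batch 4 far above them, and the host fold change was 0.26 on the log2 scale (SE 0.19, edgeR, adjusted p = 0.937). Eif2s2, the beta subunit, stood at 71.2 to 157 CPM in NOD and 53.5 to 154 CPM in B16A libraries, with a fold change of 0.15 (SE 0.14). Eif2a and Eif2d, factors that can deliver initiator tRNA without eIF2, had 0.16 (SE 0.19) and -0.02 (SE 0.20).

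The gamma subunit of eIF2 is coded by an X-linked gene, Eif2s3x, and a Y-linked gene, Eif2s3y, and here the libraries split by batch and not by host. Eif2s3y (chromosome Y, 1010543 to 1028847, plus strand, mm10) had 1 count in each batch 1 library. In batches 2, 3 and 4 it stood at 31.8, 52.8 and 364 CPM in NOD and at 36.4, 31.4 and 315 CPM in B16A hosts. The Y-linked gene Kdm5d likewise had 0.516 and 0.152 CPM in batch 1, against 78.8 to 107 CPM in the other libraries. Xist, made by the inactive X chromosome, had 1039 and 1207 CPM in batch 1, against 0.314 to 33.7 CPM in the others. Eif2s3x (chromosome X, 94188707 to 94212862, minus strand) stood at 7.06, 1.68, 4.58 and 10.5 CPM in NOD and at 4.72, 2.34, 2.75 and 9.97 CPM in B16A libraries. Batch 1, in which the Y copy was at 1 count, had more Eif2s3x than batches 2 and 3 in both hosts and less than batch 4.

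Per kilobase, Eif2s3y exceeded Eif2s3x in every library of batches 2 to 4, with 7.54 to 87.5 against 0.441 to 2.75 CPM per kb. The sum over both genes was 7.23 and 4.87 CPM in batch 1, 33.5 to 57.4 CPM in batches 2 and 3 and 325 to 374 CPM in batch 4. No 50-base window of Eif2s3y was shared with another gene, Eif2s3x included. Of the windows of Eif2s3x 36.2% were shared with 2 pseudogenes, so its level is uncertain. The host fold changes were 0.26 (SE 0.19) for Eif2s3y and 0.25 (SE 0.41) for Eif2s3x, neither past the threshold (edgeR, adjusted p = 0.938 and 0.979).

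**Figure D4:**
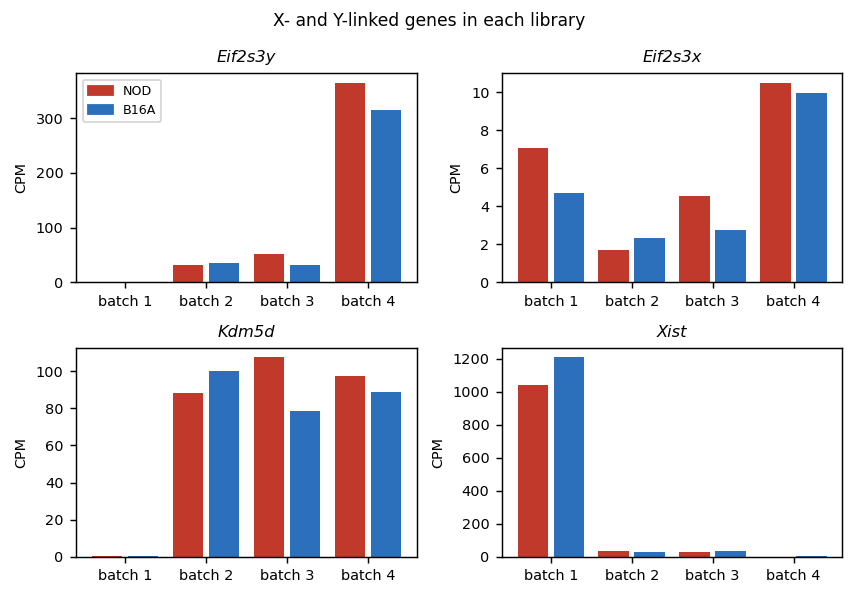
CPM (linear axis) of Eif2s3y, Eif2s3x, Kdm5d and Xist in each library by batch, red NOD and blue B16A host, 1 bar per library with no error bar. Eif2s3y and Kdm5d are near 0 in batch 1, where Xist stands at 1039 and 1207 CPM, and Eif2s3x stays at or under 10.5 CPM throughout.

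The 5 subunit genes of eIF2B, the exchange factor that recharges eIF2, lay close together. Of these 4 had a fold change above 0, the median was 0.09 and 0 were called. Eif2b2 stood at 32.3 to 55.7 CPM in NOD and 35.0 to 56.0 CPM in B16A libraries, with 0.09 (SE 0.17). Eif2b4 had 0.07 (SE 0.19). Eif2b1 had 0.21 (SE 0.20), and 0.10 without batch 2. Eif2b3 had 0.22 (SE 0.20), and 0.046 without batch 4. Eif2b5, the catalytic epsilon subunit, averaged 23.2 ± 2.23 CPM in NOD and 25.8 ± 4.30 CPM in B16A libraries (SD, n = 4 each), with -0.15 (SE 0.19), and the hosts overlapped.

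The eIF3 genes, which code for the scaffold that holds initiation factors on the small subunit, split in direction. Of 13 tested members 8 had a positive and 5 a negative fold change, with a median of 0.10 and 0 called. Eif3g stood at 66.4, 53.5, 85.8 and 201 CPM in NOD and at 56.0, 33.1, 68.9 and 168 CPM in B16A libraries. The NOD library was higher in each batch, with a log2 fold change of 0.37 (SE 0.15, edgeR, unadjusted p = 0.0228, adjusted p = 0.798). Eif3k (209, 109, 218 and 735 CPM in NOD against 171, 100, 160 and 673 CPM in B16A libraries) was also higher in each batch, with 0.25 (SE 0.13, edgeR, adjusted p = 0.876).

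Eif3e, the subunit first known as the mouse mammary tumour virus integration site Int6, stood at 24.3, 19.8, 29.9 and 504 CPM in NOD and at 23.7, 16.2, 19.7 and 408 CPM in B16A libraries. It too was higher in each batch, with 0.31 (SE 0.15, edgeR, adjusted p = 0.859). The batch 4 libraries stood far above the rest, and 22.0% of its windows were shared with 4 pseudogenes. Of those pseudogenes Eif3s6-ps1 and Eif3s6-ps2 are counted on their own, and the latter held 1 to 6 counts outside batch 4, against 254 and 409 within it. Eif3h, the member of the complex with the highest level, went the other way in batches 1 to 3. It stood at 247, 225, 260 and 561 CPM in NOD and at 274, 323, 298 and 499 CPM in B16A libraries, with -0.17 (SE 0.14, edgeR, adjusted p = 0.942). Eif3i (-0.24, SE 0.19), Eif3f (-0.19, SE 0.19) and Eif3m (-0.06, SE 0.17) were also negative, each with ratios of both signs.

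In the cap-binding complex and its helpers 10 of 12 members had a fold change above 0, with a median of 0.16 and 0 called. Eif4g2, a relative of the eIF4G scaffold that serves cap-independent initiation, stood at 647, 440, 661 and 1385 CPM in NOD and at 536, 552, 510 and 1028 CPM in B16A libraries, with 0.19 (SE 0.15). Batch 2 went against the other 3 batches. The helicase genes Eif4a1 and Eif4a2 were at like levels in batches 1 to 3, with 34.8 to 75.8 CPM and 44.1 to 84.9 CPM. In batch 4 Eif4a1 stood at 312 and 287 CPM and Eif4a2 at 1066 and 783 CPM, NOD before B16A. Per kilobase the order of both genes turned: Eif4a1 had a median of 14.5 and Eif4a2 of 11.2 CPM per kb in batches 1 to 3, against 69.1 and 173 in batch 4. Their host fold changes were 0.13 (SE 0.14) and 0.05 (SE 0.17), and 65.3% and 12.7% of their windows were shared with other genes.

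Eif4a3, the helicase of the exon junction complex, stood at 45.3 to 216 CPM in NOD and 43.7 to 156 CPM in B16A libraries and was higher in the NOD library of each batch, with 0.25 (SE 0.15, edgeR, adjusted p = 0.907). Eif4e, the cap-binding subunit itself, stood at 15.5, 24.9, 20.8 and 102 CPM in NOD and at 21.5, 15.3, 14.9 and 74.0 CPM in B16A libraries. Batch 1 went against the other 3, and the fold change was 0.30 (SE 0.21, edgeR, adjusted p = 0.936). Its relative Eif4e3 stood at 18.6, 23.4, 18.1 and 23.8 CPM in NOD and at 14.2, 12.8, 14.2 and 26.5 CPM in B16A libraries. The NOD library was the higher in batches 1 to 3 and the lower in batch 4. The fold change of Eif4e3 was 0.35 (SE 0.23, edgeR, adjusted p = 0.923). Eif4e1b, a cap-binding gene known from oocytes, had 0 counts in both batch 4 libraries, which allows at most 0.134 and 0.126 CPM (counting error only), and 0.457 to 2.24 CPM elsewhere.

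Of the genes that restrain eIF4E, Eif4ebp2 was the member with the most negative fold change of the family. It codes for the eIF4E binding protein 2 and lies on chromosome 10 (61428491 to 61452661, minus strand, mm10). It stood at 136, 142, 134 and 37.5 CPM in NOD and at 164, 214, 155 and 52.8 CPM in B16A libraries. In batches 1 to 3 every NOD library lay below every B16A library, and with batch 4 included the hosts overlapped. The log2 fold change was -0.39 (SE 0.14, edgeR, unadjusted p = 0.0116, adjusted p = 0.762), and no 50-base window of it was shared with another gene. Batch 4 stood below the rest, against the direction of most members.

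Eif4ebp1, the better known binding protein, was scarce at 1.72, 1.87, 3.92 and 10.1 CPM in NOD and 2.44, 3.28, 2.75 and 4.40 CPM in B16A libraries. Its ratios had both signs, with 0.18 (SE 0.53), and without batch 4 the fold change was -0.24. Eif4ebp3 held 0 to 1.87 CPM and was not tested, and 65.5% of its windows are shared with 1 other gene model. Eif4enif1, a carrier that brings eIF4E into the nucleus, had -0.13 (SE 0.15). Per kilobase in batches 1 to 3 Eif4ebp2 had a median of 25.7 CPM per kb against 1.18 for Eif4ebp1 and 3.02 for Eif4e, and in batch 4 a mean of 7.81 against 3.30 and 14.6.

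Eif5a, the factor that carries the amino acid hypusine and eases the ribosome through hard stretches, stood at 67.5, 54.4, 60.0 and 456 CPM in NOD and at 62.0, 53.5, 48.9 and 268 CPM in B16A libraries. The NOD library was higher in each batch, by little in batches 1 and 2, with 0.31 (SE 0.15, edgeR, unadjusted p = 0.0590, adjusted p = 0.859). Its paralog Eif5a2 stood at 2.74 to 7.04 CPM over all libraries, with -0.38 (SE 0.49). Eif6, which keeps free large subunits from joining, had 0.11 (SE 0.17).

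Among the 7 elongation factors 4 had a fold change above 0, with a median of 0.10 and 0 called. The 2 most abundant members did not move with the host beyond their error. Eef1a1 (chromosome 9, 78478449 to 78489151, minus strand) stood at 2026, 1226, 2213 and 2025 CPM in NOD and at 1786, 1407, 1925 and 1733 CPM in B16A libraries, that is a mean of 1873 ± 440 CPM against 1713 ± 219 CPM (SD, n = 4 each), with a fold change of 0.10 (SE 0.14, edgeR, adjusted p = 0.970). Eef2 stood at 1171, 891, 1132 and 1189 CPM in NOD and at 1094, 1229, 976 and 1140 CPM in B16A libraries, with -0.02 (SE 0.15, edgeR, adjusted p = 0.998). For both genes the batch 4 libraries lay within the range of the other 6.

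Both eEF1B subunit genes with an unadjusted p under 0.05 help reload eEF1A with GTP. Eef1b2 stood at 397, 264, 565 and 1022 CPM in NOD and at 337, 181, 290 and 1077 CPM in B16A libraries. The NOD library was higher in batches 1 to 3 and lower in batch 4, with 0.41 (SE 0.16, edgeR, unadjusted p = 0.0230, adjusted p = 0.798), and without batch 3 the fold change was 0.23, while without batch 4 it was 0.58 (edgeR, adjusted p = 0.103). Eef1d stood at 193, 143, 259 and 232 CPM in NOD and at 171, 81.1, 160 and 240 CPM in B16A libraries and followed the same order, with 0.41 (SE 0.16, edgeR, unadjusted p = 0.0228, adjusted p = 0.798). Without batch 2 its fold change was 0.27. Eef1b2 overlaps Ndufs1 on the other strand and Eef1d overlaps Naprt on its own strand, and the use of strand in counting is not given in the sources used here. Eef1g, the third subunit, stood at 71.1 to 124 CPM in NOD and 63.3 to 95.2 CPM in B16A libraries, with 0.15 (SE 0.16).

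**Figure D5:**
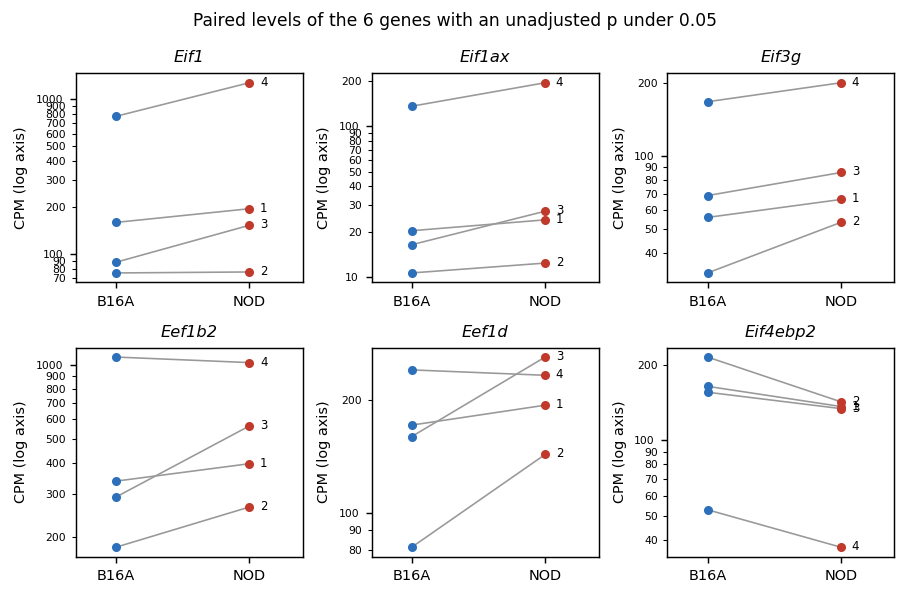
CPM (log axis) of the 6 members with an unadjusted p under 0.05 (edgeR, batch as a term) in B16A (blue) and NOD (red) libraries, 1 point per library with no error bar, lines joining the libraries of a batch, batch number at the right. Eif1, Eif1ax and Eif3g go up from B16A to NOD in each batch, Eif4ebp2 goes down in each, and Eef1b2 and Eef1d go up in batches 1 to 3 only.

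Eef1a2, the form of eEF1A known from muscle and neurons, had 1.46 to 4.68 CPM in batches 1 to 3 but 0 counts in both batch 4 libraries, which allows at most 0.134 CPM in the NOD and 0.126 CPM in the B16A library. Eef1e1, a scaffold protein of the tRNA synthetase complex, had 2.80 to 7.80 CPM in batches 1 to 3, against 95.7 and 68.9 CPM in batch 4, with -0.26 (SE 0.28). Eef2k, the kinase that stops eEF2, stood at 7.57 to 11.5 CPM over all libraries, with 0.07 (SE 0.29). Eef2kmt, a methyltransferase of eEF2, had 0.06 (SE 0.21). The 9 members listed as TOP mRNAs had 6 positive fold changes and a median of 0.10, against 36 positive of 49 and a median of 0.15 for the other members tested.

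The batch 4 libraries stood apart for most members. Both lay above the other 6 libraries for 43 of 58 members, where 31.8% of all genes did, and below them for 5, where 40.4% did. These counts depend on the scaling between batches, for the members and for genes in general. With DESeq2 size factors 36 members were above and 5 below, where 4257 and 6308 of all 14607 genes were. With upper-quartile factors 23 members were above and 16 below, where 2978 and 7777 of all 14607 genes were. The size of the difference varied widely, from -3.75 for Eef1a2 to 5.42 for Eif2s3y on the log2 scale, with a median of 0.93. The value of Eef1a2 rests on 0 counts in both batch 4 libraries, so its size depends on the small count added before taking logs. Eif4e1b, another member below, also had 0 counts in both. The value of Eif2s3y includes batch 1, where it had 1 count per library. Beyond that gene, Eif3e stood 4.36, Eif4a2 3.96 and Eef1e1 3.90 higher in batch 4 than in batches 1 to 3, while Eef1a1 and Eef2 stood 0.12 and 0.11 higher. Members with at least 20% of their windows shared with other genes had a median of 1.46 and the other members one of 0.81. Depth, the number of genes detected and the CD4 marker sums moved with batch 4 too, and their part in these differences was not tested.

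Host fold changes of members with the E-box CACGTG were positive for 7 of 12 with a median of 0.05, and for 25 of 34 with a median of 0.12 among tested members without it. For CCGGAAGT the counts were 7 of 8 with a median of 0.17 and 25 of 38 with a median of 0.09. Members with 20% or more shared windows had a median host fold change of 0.15 over 12 tested genes, and the other 46 one of 0.13.

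Of 45 further translation genes on 5 lists 43 were tested, and 0 were called by edgeR with batch as a term, by DESeq2 or by limma voom. Of all genes these fits called 0%, 0.123% and 0.0548% higher and 0%, 0.0205% and 0.00685% lower. In edgeR 4 of the 43 had an unadjusted p under 0.05 in each direction, against 3.55% higher and 2.31% lower of all genes. The eIF2 kinases, phosphatase adaptors and their targets had 2 positive and 6 negative fold changes and a median of -0.26. Eif2ak4, the kinase GCN2 that senses uncharged tRNA, had the smallest p of this list, averaging 24.1 ± 10.4 CPM in NOD against 35.7 ± 11.8 CPM in B16A hosts (SD, n = 4 per host), and a log2 fold change of -0.64 (SE 0.20, edgeR, unadjusted p = 0.00616, adjusted p = 0.725). The list of poly(A) binding, helicase and cap-complex control genes had 7 positive and 6 negative and a median of 0.07, and its genes with an unadjusted p under 0.05 had opposite signs. Ddx3y, a Y-linked helicase gene, had 0.39 (SE 0.17, edgeR, adjusted p = 0.844), with 0 and 0.152 CPM in the batch 1 libraries. Larp1, which binds TOP mRNAs, had -0.32 (SE 0.14, edgeR, adjusted p = 0.844). Termination, recycling and rescue genes had 4 of each sign and a median of 0.02, with Mcts1, a ribosome recycling factor, at 0.66 (SE 0.22, edgeR, adjusted p = 0.744). Diphthamide and hypusine synthesis had 4 of each sign and a median of 0.02, with Dohh, the enzyme that completes hypusine on eIF5A, at 0.36 (SE 0.33). Mitochondrial initiation and elongation factors had 4 positive and 2 negative and a median of 0.08, with Gfm2, a mitochondrial recycling factor, at 0.22 (SE 0.18).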

How the data were processed

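RNA of 8 samples of sorted T cells, 4 per host, went through SeqPlex amplification and single-end sequencing of 50 bases, per the labels' protocols. The authors deposited raw counts, not normalized, in 1 table of 46625 gene names, with 0 names that denote no gene. The submitters' processing notes name STAR, HTSeq, DESeq2 and the build mm10, with versions, annotation and strand use not given in the sources used here. Members, lists and tests were chosen with earlier results of these data known.

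The test was edgeR 4.0.16 under R 4.3.3 (robust glmQLFit, glmQLFTest) with the filterByExpr filter, TMM normalization and batch as a term, which left 14607 genes and removed 32018. Benjamini-Hochberg adjustment ran over all of them with a threshold of 0.05. Standard errors come from the F statistic. Unlabelled fold changes are on the log2 scale, NOD over B16A, and within-batch ratios are differences of log2 CPM with a prior count of 2. Batch is used as a block because the labels call the number a batch. As a check, deviations from the host means correlated across genes with r = 0.625, 0.702, 0.611 and 0.906 within batches 1 to 4. Libraries with different numbers in batches 1 to 3 gave 0.465 to 0.741, and the B16A library of batch 3 correlated best with the NOD library of batch 2. Pairs of batch 4 with another batch gave -0.825 to -0.636. The host means include batch 4. A batch 4 far from the rest lowers these values and raises those among batches 1 to 3, whatever their numbers. The correlations thus set batch 4 apart and do not tell batches 1 to 3 from one another. The sex-linked genes set the batch 1 libraries of both hosts apart from batches 2 and 3, with Xist at 1039 and 1207 CPM in batch 1. Between batches 2 and 3 the pairing rests on the labels alone. Alternatives were the fit without the block, DESeq2 1.42.0, limma 3.58.1 voom, 2 other scalings, 2 other filters and each batch left out. The fitting code was tested on simulated data. Positions, exon lengths and shared 50-base windows come from GENCODE vM21 (GRCm38, the assembly mm10 denotes), and sequences from RefSeq. Named members were, in each role, the 2 highest per kilobase and the 2 with the smallest p, any member called, and 13 fixed genes. Other members, CD4 markers and Larp1, where named, were chosen after their values were seen. The depth of 4896593 to 28301805 counts per library limits the precision for scarce genes, and the zero limits use 3 counts and cover counting error only.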

Additional observations from a re-analysis of the deposited data

Results flagged for a closer look

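In each host, the highest or lowest of the 4 libraries was compared with the other 3 by Dixon's ratio, the gap to the nearest library over the whole range of log2 CPM. Of 70 combinations of a named member and a host 13 exceeded the critical value that chance exceeds about 1 time in 20. Over all tested genes 5573 of 29214 combinations of a gene and a host did (19.1%), and 18.2% did so with batch 4 apart, so the members' share is near that of genes in general. In 12 of the 13 the library apart was that of batch 4, and in 11 of these it was the highest. The ratios were 0.965 and 0.895 for Eif2s1 in NOD and B16A hosts, 0.873 and 0.883 for Eif3e, and 0.899 and 0.861 for Eif5a, all with batch 4 high. In NOD hosts alone batch 4 was high for Eif3h (0.839) and Eif4a2 (0.871) and low for Eif4ebp2 (0.953). In B16A hosts alone it was high for Eif2b1 (0.840), Eif4e3 (0.854) and Eif4g2 (0.889). For Eef1a1 in NOD hosts the library apart was the low one of batch 2 (0.850).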

How the results depend on the processing

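The number of members called stayed at 0 in all 12 alternatives, and that of the 43 or 44 other translation genes tested also stayed at 0. In the fit with no replicate block edgeR called 0 of 58 members, with 0 at an unadjusted p under 0.05. It gave 46 positive fold changes and a median of 0.17. Over all 14607 genes it called 0, with 0.116% under that unadjusted p in each direction and 54.1% positive. The fits with and without the block both called no gene at all, so the number of calls cannot show what dropping the pairing does. The median was 0.07 to 0.17 when each batch was left out in turn, lowest without batch 3, and 38 to 46 members were then positive. Without batch 3 edgeR gave 1 member higher and 2 lower at an unadjusted p under 0.05 in place of 5 and 1. The counts over all genes fell too, to 288 higher and 212 lower of 14693, from 519 and 338 of 14607. Upper-quartile factors moved the number of members with batch 4 above the other libraries to 23 and below them to 16. Of all 14607 genes 2978 were then above and 7777 below. The other scalings of the batch 4 counts, the fit without batch 4 and without the block, and every alternative for the other translation genes were chosen after seeing the data. Over 408 single-member values 16 changed sign, for 7 of 34 members, none past the threshold, and the cause was not tested. Leaving out 1 batch moved the fold change of 26 of the 34 members by over 1.5 times, 19 of them without a change of sign. With limma voom the changes of sign were Eef2 (0.036), Eif2b4 (-0.051) and Eif4a2 (-0.012). Without batch 4 and the block those were Eef2kmt (-0.067), Eif2b4 (-0.035), Eif4a2 (-0.12) and Eif4ebp1 (-0.16). When each batch was left out in turn, Eef2 ran from -0.099 to 0.12, Eef2kmt from -0.066 to 0.15, Eif2b2 from -0.049 to 0.18, Eif2b4 from -0.018 to 0.22, Eif4a2 from -0.099 to 0.18, Eif4ebp1 from -0.24 to 0.49 and Eif6 from -0.019 to 0.24. Scarce members such as Eif4e1b, Eef1a2 and Eif4ebp1 had standard errors of 0.82, 0.69 and 0.53. Eif4e1b and Eef1a2 had 0 counts in both batch 4 libraries, the deepest ones. The part of depth in these errors was not tested.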
